A study of Mus musculus with 4 samples.

Results

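Plasmacytoid dendritic cells (pDCs) are the dendritic cells best known for releasing type I interferon. They are known for messages of some genes that are otherwise read as marks of the B lymphocyte lineage. A set of 10 B-lineage genes was followed here in splenic pDCs of wild-type (WT) and Flt3 knockout (Flt3 KO) mice. Cd79a, Cd79b, Blk, Blnk and Fcrla belong to antigen-receptor signalling and the B cell surface pathway. Pou2af1 and Pax5 act in transcription, and Dntt, Rag1 and Rag2 act in antigen-receptor gene assembly. The set was defined by gene name, and membership does not mean that a gene gave clear signal in these cells. All 10 were measured among the 19938 genes of the array, each by 1 probe set, a group of probes reported as a single value.

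The 4 samples were mature pDCs sorted from spleen, 2 from WT and 2 from Flt3 KO mice, all at steady state and all from spleens digested with Collagenase B and DNAse 1. Flt3 encodes a receptor kinase that dendritic cell and early lymphoid precursors use to respond to FLT3 ligand. The sources used here do not give strain, age, sex, the form of the knockout allele, the sort gate or whether animals were pooled. Samples of a genotype are labelled biological replicates, and nothing more is known of their origin. Each p-value therefore reflects only the scatter of these particular samples, pooled in part over genes of similar intensity. Values are log2 of the authors' deposited intensity, and differences were taken as the Flt3 KO mean less the WT mean on that scale. The standard error (SE) and adjusted p of a difference come from the limma fit over all 19938 genes with Benjamini-Hochberg adjustment, with a threshold of 0.05. For 1 gene alone, 2 arrays against 2 give an exact two-sided permutation p of at least 0.3333.

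In B cells, the B cell receptor signals through the Cd79a and Cd79b chains, which recruit SRC-family kinases such as Blk and the kinase Syk. The adaptor Blnk then links Syk to Btk and Plcg2. Earlier in the lineage, the Rag1 and Rag2 proteins cut antigen-receptor genes, the polymerase encoded by Dntt adds bases at the cut ends, and Pax5 holds cells to the B cell fate. Plasmacytoid cells share several regulators with B cells, among them the E protein Tcf4 and the ETS factor Spib, and are known for transcripts of some recombination genes without making a B cell receptor.

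The identity of the cells is taken from the labels. Of 14 pDC markers 12 were measured, and all 12 lay above the median of all genes in WT. That level does not single out pDCs. Only 2 of 17 monocyte and macrophage, 1 of 9 T cell and 3 of 14 mature B cell markers lay below it. Siglech, a pDC lectin gene, stood at 12.65 and 12.64 in WT against 12.51 and 12.53 in Flt3 KO, and Flt3 itself at 10.71 and 10.77 in WT against 8.46 and 8.61 in Flt3 KO. Across the array 476 genes passed the threshold, or 2.39% of those tested, 215 of them higher in Flt3 KO (1.08%) and 261 lower (1.31%). Monocyte and macrophage markers were uneven between the Flt3 KO arrays. Relative to the WT mean their median over 17 measured genes was 0.13 on the first Flt3 KO array (replicate 1) and 0.56 on the other (replicate 2). The median deposited intensity ranged from 55.1 to 57.2 over the arrays, and the number of arrays limits the precision.

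The 300 bases around the transcription start of 3 of the genes are shown as context for the levels that follow: Fcrla, the one member that passed the threshold, and the neighbours Blnk and Dntt, which lie side by side among coding genes on chromosome 19 and did not pass. Gene order and sequences come from RefSeq on the GRCm38.p6 build, with the start that its table lists, which need not be the only one. They are read 5′ to 3′ on the strand of the gene, with 250 bases before the start and 50 from it on. The Fcrla window is chr1:170927534-170927833 on the minus strand, that of Blnk is chr19:40994172-40994471 on the minus strand and that of Dntt is chr19:41029025-41029324 on the plus strand. Capitals mark matches to CAGGTG, an E-box of the kind bound by E proteins, or to the octamer ATGCAAAT, the element read by POU2F factors and their coactivator Pou2af1, each searched on both strands.
Fcrla: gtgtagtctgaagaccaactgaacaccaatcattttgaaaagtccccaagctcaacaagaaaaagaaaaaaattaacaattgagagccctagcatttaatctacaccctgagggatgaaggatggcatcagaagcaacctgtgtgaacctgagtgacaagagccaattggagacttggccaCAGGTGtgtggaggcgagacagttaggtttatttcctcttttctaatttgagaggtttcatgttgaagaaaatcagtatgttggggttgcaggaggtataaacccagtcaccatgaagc
Blnk: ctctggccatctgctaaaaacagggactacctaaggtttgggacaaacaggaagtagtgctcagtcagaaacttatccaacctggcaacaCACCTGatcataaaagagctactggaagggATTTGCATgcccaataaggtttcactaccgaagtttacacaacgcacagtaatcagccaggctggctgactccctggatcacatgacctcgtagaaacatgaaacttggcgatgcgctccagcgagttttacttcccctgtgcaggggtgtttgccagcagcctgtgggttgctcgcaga
Dntt: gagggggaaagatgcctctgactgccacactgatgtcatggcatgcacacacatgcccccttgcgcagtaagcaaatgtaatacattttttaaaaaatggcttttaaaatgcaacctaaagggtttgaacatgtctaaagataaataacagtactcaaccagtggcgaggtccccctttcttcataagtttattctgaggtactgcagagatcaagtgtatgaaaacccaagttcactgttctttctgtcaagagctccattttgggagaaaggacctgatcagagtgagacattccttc

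CAGGTG began at position −69 in Fcrla, on the gene's own strand, where −1 is the base just before the start. In Blnk it lay on the opposite strand from −160, and the octamer on the opposite strand from −130. Sequences of 8 of the 10 members were at hand. CAGGTG was in 4 of the 8 (Fcrla, Blnk, Rag1 and Cd79a) and in 20.2% of 32851 promoter windows of the same length. The octamer was in 1 of 8 against 1.74% of all windows. Searches for GAGGAAGT, a PU.1 element, and CCCNNGGG, the core of an EBF1 element, matched 0 of the 8, against 3.2% and 13.7% of all windows. A match is a stretch of letters and not a measured site, and a window without one says nothing about the factor. Fcrla, which differed between genotypes, and Blnk, which did not pass the threshold, both held the E-box.

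Of the 10 members, 1 fell in Flt3 KO pDCs, 0 rose and 9 did not pass the threshold. Fcrla was that gene. Over all genes 2.39% were called and 1.31% were lower, so a single call among 10 is a small count. At an unadjusted p under 0.05 in limma there were 4 members, Fcrla, Dntt, Cd79b and Blk, each lower in Flt3 KO, against 17.1% of all genes. The same 4 were the members for which the arrays of the 2 genotypes did not overlap. Non-overlap was common on these arrays, at 47.2% of all genes, and 25.3% of all genes were non-overlapping and lower. The median difference over the 10 members was −0.02, beside −0.0010 over all genes.

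**Figure D1:**
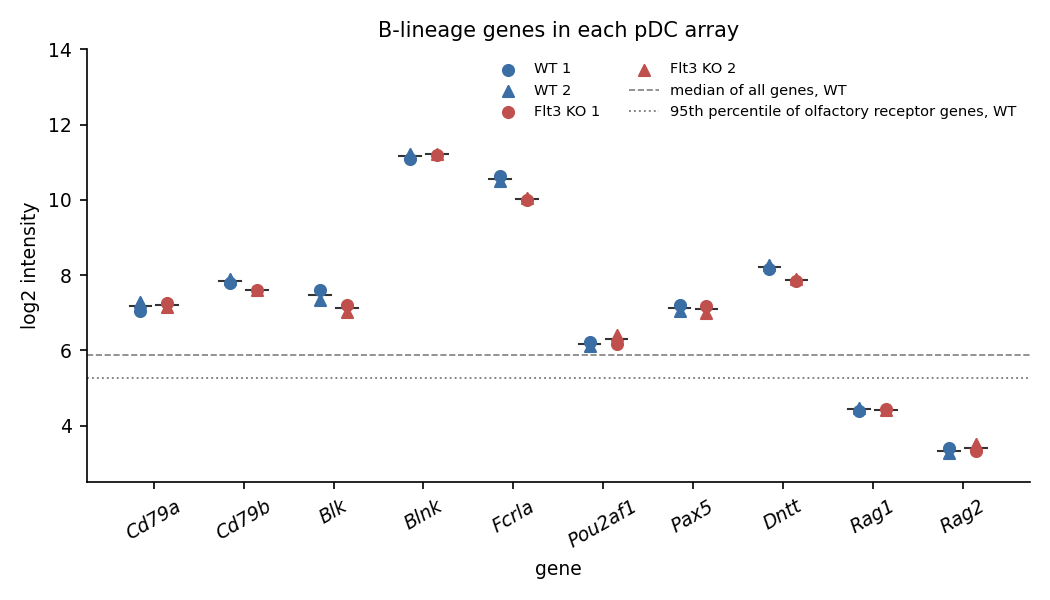
Log2 intensity (y axis) of the 10 B-lineage genes (x axis) in each array; blue is WT, red is Flt3 KO, circles are replicate 1, triangles replicate 2 and short lines the genotype means. Blnk and Fcrla lie above 9.9 in every array, Rag1 and Rag2 lie below both guide lines, and only Fcrla passed the threshold between genotypes.

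Brightness depends on the probes as well as on the transcript, so levels of different genes cannot be ranked as amounts. As a guide to low signal, 1027 olfactory receptor genes, which blood cells are not known to use, had a median WT log2 intensity of 3.53 and a 95th percentile of 5.26, and the median of all genes was 5.87. Of the 10 members, 8 lay above both in WT. The highest olfactory receptor gene reached 7.98, and 3 members, Blnk, Fcrla and Dntt, exceeded even that.

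Blnk, the adaptor that joins Syk to downstream effectors, gave 11.09 and 11.21 in WT against 11.19 and 11.22 in Flt3 KO. The genotypes overlapped, and the replicates of WT stood further apart than the genotype means. The difference was 0.06 (SE 0.052, adjusted p = 0.64), with a 95% interval of −0.07 to 0.18. Its signal lay far above the guide lines in every array.

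Fcrla encodes an intracellular Fc receptor-like protein of B cells that binds immunoglobulin in the endoplasmic reticulum. It stood at 10.62 and 10.51 in WT against 9.996 and 10.05 in Flt3 KO. Both Flt3 KO arrays were below both WT arrays, and the gap between genotypes was several times the gap between replicates. The fall was by 0.54 on the log2 scale (SE 0.058, adjusted p = 0.0085), a level 1.45-fold higher in WT, with means of 10.56 ± 0.08 and 10.02 ± 0.04 (SD, n = 2 each). A difference of this size or more in either direction was seen for 277 of the 19938 genes, Fcrla among them. With any single array left out the difference stayed between −0.60 and −0.48, but its adjusted p rose to between 0.095 and 0.28, and without the intensity trend in the variance it was 0.062. Monocyte and macrophage markers were highest in Flt3 KO replicate 2, and leaving that array out gave −0.57. Their summed intensity was above WT in Flt3 KO replicate 1 as well, at 6028 against 4973 to 5401. The part of such cells in the Fcrla difference was not tested. In a bulk sample, fewer cells carrying a transcript and less transcript per cell cannot be told apart.

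The 95% interval of Fcrla was −0.67 to −0.40, while that of Blnk lay around 0. The 2 genes whose pattern over the 4 arrays was nearest to that of Fcrla, by root mean square difference of the centred log2 values, were Inf2, a formin gene, at 0.0079 and Serpinb9, which encodes a granzyme B inhibitor, at 0.018. Predicted or unnamed genes and symbols that begin like antigen-receptor segments were left out of that search. Inf2 had a difference of −0.54 (adjusted p = 0.014) and Serpinb9 one of −0.51 (adjusted p = 0.048), though Serpinb9 was dim, between 4.14 and 4.73. Both were picked for likeness to Fcrla on these arrays, so their differences are no separate result.

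Both signalling chains of the B cell receptor lay above the median of all genes. Cd79a, the Ig-alpha chain, gave 7.05 and 7.29 in WT against 7.25 and 7.14 in Flt3 KO. The groups overlapped, with a difference of 0.03 (SE 0.10, adjusted p = 0.93) and an interval of −0.21 to 0.26; its sign turned when each array was centred on its median (−0.01), without WT replicate 1 and without Flt3 KO replicate 1. Cd79b, the Ig-beta chain, gave 7.79 and 7.90 in WT and 7.59 in both Flt3 KO arrays. Here the Flt3 KO arrays were below both WT arrays, with a difference of −0.25 (SE 0.071, adjusted p = 0.14) and an interval of −0.42 to −0.08. The partner chains work as a pair in B cells; whether their differences differed from each other was not tested.

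Blk encodes a SRC-family kinase of B cells. Its levels were 7.61 and 7.33 in WT against 7.21 and 7.03 in Flt3 KO. No Flt3 KO array reached the WT range, but the WT replicates were 0.28 apart, the widest gap between replicates of any member. The difference was −0.34 (SE 0.11, adjusted p = 0.18), and with an array left out it ran from −0.49 to −0.20.

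Dntt encodes terminal deoxynucleotidyl transferase, the polymerase that adds untemplated bases during antigen-receptor assembly. It gave 8.17 and 8.27 in WT against 7.86 and 7.90 in Flt3 KO. Replicates agreed closely and the genotypes did not overlap. The difference was −0.34 (SE 0.070), a level 1.26-fold higher in WT, with an interval of −0.50 to −0.17 and an adjusted p of 0.062 that missed the threshold. It passed in limma when arrays were centred on their medians (adjusted p = 0.035), with robust variance (0.047) and when dim genes were left out of the test (0.031). It did not pass without the intensity trend (0.14), with all probe sets tested (0.115) or with the replicate number as a block (0.083). Nor did it with quantile normalization (0.078), 16 added to each intensity (0.060) or probe sets averaged (0.060). In the 4 fits with an array left out its adjusted p was 0.25 to 0.33, with differences between −0.39 and −0.28. Its coding neighbour Blnk had the interval around 0 given above.

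The recombinase genes gave signal in the range of the olfactory receptor genes. Rag1 gave 4.40 and 4.47 in WT against 4.45 and 4.41 in Flt3 KO, and Rag2 gave 3.40 and 3.26 in WT against 3.33 and 3.51 in Flt3 KO. All 8 values lay under 5.26, the 95th percentile of the olfactory receptor genes, and the genotypes overlapped for both. The differences were −0.0040 for Rag1 (adjusted p = 0.99) and 0.09 for Rag2 (adjusted p = 0.73), and no fold is given because a change at such signal need not register. Dntt, in contrast, was well above the guide lines in the same arrays.

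Of the transcription genes, Pou2af1, the coactivator of octamer-binding factors also called OBF-1, gave 6.22 and 6.11 in WT against 6.17 and 6.42 in Flt3 KO. The groups overlapped (difference 0.13, SE 0.11, adjusted p = 0.61), and the value was close to the median of all genes. Pax5, the B cell commitment factor, gave 7.20 and 7.04 in WT against 7.19 and 6.99 in Flt3 KO, with a difference of −0.03 (SE 0.098, adjusted p = 0.92) whose sign turned without WT replicate 1 and without Flt3 KO replicate 2. The 8 other Pax genes measured, which are genes of non-blood tissues, had WT means from 4.52 to 5.94. Levels of different probe sets are not comparable as amounts, so this does not by itself show Pax5 transcript.

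**Figure D2:**
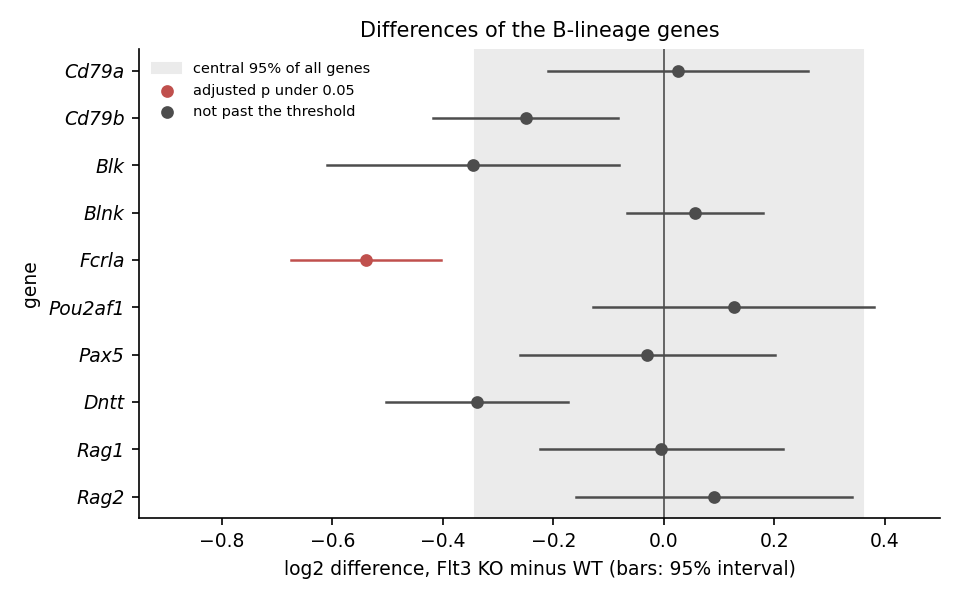
Log2 difference, Flt3 KO minus WT (x axis), of each member (y axis) with its 95% interval from limma; the grey band, −0.34 to 0.36, holds the central 95% of all genes. Fcrla (red) lies outside the band at −0.54, Blk and Dntt sit at its lower edge, and the other members lie inside.

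Mature B cells use Cd79a, Cd79b, Blk, Blnk, Fcrla, Pou2af1 and Pax5, so their markers were read beside the members. Of 16 listed, 14 were measured. Ms4a1, which encodes CD20, gave 5.56 and 5.49 in WT against 5.59 and 5.28 in Flt3 KO, and Ebf1, a founder factor of the B lineage, gave 6.07 and 5.89 in WT against 5.98 and 5.90 in Flt3 KO. Ms4a1 lay under the median of all genes, and 3 of the 14 markers did.

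Over the 14 markers, 1 fell, 0 rose and 13 did not pass, beside 2.39% called over all genes. At an unadjusted p under 0.05 in limma there were 8, beside 17.1% of all genes. For 7 lower and 3 higher markers the genotypes did not overlap, beside 47.2% of all genes in either direction. The gene that fell was Cd72, an inhibitory co-receptor of B cells, by 0.42 (SE 0.065, adjusted p = 0.025), from 8.79 and 8.90 in WT to 8.43 and 8.42 in Flt3 KO. H2-Ob, a chain of the class II modulator H2-O, had a difference of −0.28 (adjusted p = 0.095) and Ighm, the IgM heavy chain, one of 0.36 (adjusted p = 0.090), in opposite directions. The median of the list was −0.08, with −0.05 and −0.12 in Flt3 KO replicates 1 and 2. The summed intensity of the list ran from 1951 to 1973 in WT and from 1756 to 1775 in Flt3 KO. Such a sum weighs bright genes most, and the brightest of the list, Cd72 and H2-Ob, were both lower in Flt3 KO. Cr2, Bank1 and Ighm were higher in both Flt3 KO arrays. None of the 14 was at or under the 95th percentile of the olfactory receptor genes, and the part of B cells in the Fcrla difference was not tested.

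Markers of pDCs and of further cell types were counted in the same way. Over all genes 2.39% were called. Of 12 measured pDC markers 7 fell, 0 rose and 5 did not pass, and the median was −0.27. Of 17 monocyte and macrophage markers 5 rose, 0 fell and 12 did not pass, with summed intensity of 4973 to 5401 in WT and 6028 to 7910.5 in Flt3 KO; none was at or under the olfactory guide. Plasma cell markers had 2 higher and 2 lower of 10, with 1 at or under that guide and summed intensity of 5205 to 5217 in WT and 5510 to 5786 in Flt3 KO. Of 9 T cell markers 0 passed in limma and 4 had an unadjusted p under 0.05, beside 17.1% of all genes. Among the 9, 1 was at or under the guide, and summed intensity was 915 to 944 in WT and 935 to 970 in Flt3 KO. With any array left out 0 of the pDC markers passed, without the intensity trend 1 and with all probe sets tested 4. The monocyte and macrophage count was 0 to 2 and the plasma cell count 0 to 1 with an array left out, and both were 2 without the trend; plasma cell markers also had 2 with all probe sets tested. The part of these cell types in the member values was not tested.

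**Figure D3:**
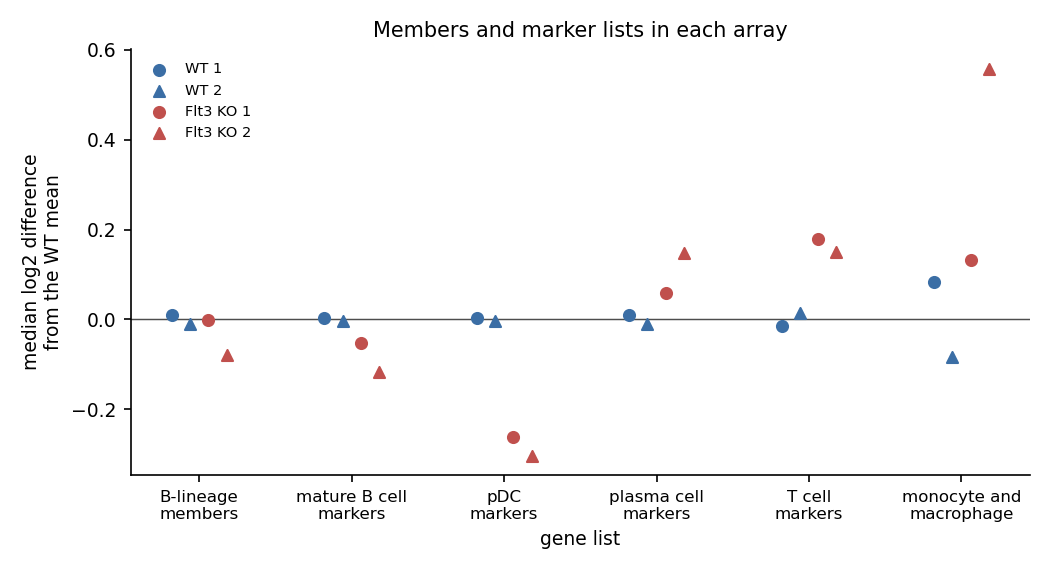
Median log2 difference from the WT mean (y axis) over the members and over each marker list (x axis) in every array, coloured and shaped as in the plot of levels. The members' median lies between −0.08 and 0.01 in every array, while pDC markers are lower in both Flt3 KO arrays and monocyte and macrophage markers reach 0.56 in Flt3 KO replicate 2.

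The calls in the lists that follow and that of Cd72, Flt3 aside, were lost without the intensity trend and with any array left out, and of the 8 genes only Spib, Runx1 and Fyn passed with all probe sets tested. Of 24 genes measured that work with the members in B cell receptor signalling, 1 fell (Cd72), 0 rose and 23 did not pass, beside 2.39% called over all genes, and the median difference was 0.01. At an unadjusted p under 0.05 there were 12, beside 17.1% of all genes, and for 9 higher and 10 lower genes the genotypes did not overlap, beside 47.2% of all genes in either direction. The kinase Syk gave 10.15 and 10.18 in WT against 10.22 and 10.29 in Flt3 KO (difference 0.09, adjusted p = 0.41). Plcg2, the phospholipase that Blnk helps to activate, stayed between 9.98 and 10.02 over the 4 arrays (difference 0.02, adjusted p = 0.91). Btk, the kinase that acts between them, had a difference of −0.20 (adjusted p = 0.20). The brightest of the list, the phosphatase genes Ptpn6 and Inpp5d, had differences of −0.06 (adjusted p = 0.51) and 0.04 (adjusted p = 0.76). Syk, Btk and Plcg2, the partners of Blnk, lay above the guide lines in every array and did not pass the threshold.

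Regulators shared with the B lineage moved both ways. Of 23 measured transcription factors 3 rose, 2 fell and 18 did not pass (median 0.08). Spib, an ETS factor of B cells and pDCs, fell by 0.47 (SE 0.057, adjusted p = 0.011), from 11.28 and 11.31 to 10.89 and 10.75, and Irf8, a regulator of dendritic and B cell development, fell by 0.31 (adjusted p = 0.022). Runx1 rose by 0.60 (adjusted p = 0.013), Spi1, which encodes PU.1, by 0.55 (adjusted p = 0.021) and Id3, an inhibitor of E proteins, by 0.71 (SE 0.11, adjusted p = 0.024). Spib and Irf8 are pDC markers too, and Spi1 is used by monocytes, of whose 17 markers 5 rose. Runx1 and Id3 are on none of the marker lists. The part of cell composition in these differences was not tested. Tcf4, the E protein of pDCs, gave 12.25 in both WT arrays and 12.15 and 12.26 in Flt3 KO (difference −0.04, adjusted p = 0.70).

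Early B-lineage genes other than Flt3 did not pass. Of the 13 measured 1 fell, Flt3 itself, 0 rose and 12 did not pass, beside 2.39% called over all genes. At an unadjusted p under 0.05 in limma there were 7, Flt3 among them, beside 17.1% of all genes. For 4 higher and 6 lower genes the genotypes did not overlap, beside 47.2% of all genes in either direction. The surrogate light chain genes, which stand in for an antibody light chain in pre-B cells, lay near the median of all genes. Igll1 gave 5.77 and 5.89 in WT against 6.18 and 6.35 in Flt3 KO (difference 0.43, adjusted p = 0.085), and Vpreb1 gave 5.86 and 5.78 in WT against 5.98 and 5.74 in Flt3 KO (difference 0.04, adjusted p = 0.90). Il7r, the interleukin-7 receptor chain, stood at 10.30 and 10.36 in WT with a difference of −0.15 (adjusted p = 0.27).

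The ends left by the recombinase are joined by machinery that all cells use in DNA repair. A list around it was tested in 11 genes, among them Hmgb1 and Hmgb2, which do not encode joining enzymes. In WT 1 of the 11, Xrcc5 at 4.53, was under the olfactory guide. In limma 0 of the 11 passed, beside 2.39% called over all genes. An unadjusted p under 0.05 was seen for 3, all lower, beside 17.1% of all genes. The median was −0.14, and 6 of the 11 were lower without overlap, beside 25.3% of all genes. The brightest, the chromatin protein genes Hmgb1 and Hmgb2, had differences of −0.06 and −0.20 (adjusted p = 0.87 and 0.20).

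Close relatives of the members were a further comparison. Of 23 measured 1 rose, 1 fell and 21 did not pass, beside 2.39% called over all genes, with a median of 0.03. At an unadjusted p under 0.05 in limma there were 3, beside 17.1% of all genes. For 5 higher and 4 lower relatives the genotypes did not overlap, beside 47.2% of all genes. In WT 10 of the 23 were at or under the olfactory guide. Fyn, a SRC-family kinase related to Blk, fell by 0.32 (SE 0.041, adjusted p = 0.013), from 11.68 and 11.65 to 11.36 and 11.34. Fgr, another kinase of that family, had a difference of −0.16 (adjusted p = 0.23). Clnk, an adaptor related to Blnk, rose by 0.51 (SE 0.090, adjusted p = 0.039) from 4.93 in both WT arrays, under the guide, to 5.42 and 5.45; its call was also lost with the replicate number as a block and with all probe sets tested. Fcrlb, the relative of Fcrla that lies next to it on chromosome 1, gave 5.54 and 5.63 in WT against 5.75 and 5.63 in Flt3 KO (difference 0.11, adjusted p = 0.63). The fall of Fcrla had no counterpart past the threshold at its neighbour. Fcrlb lay under the median of all genes, 5.87 in WT, and a fall at such signal need not register.

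**Figure D4:**
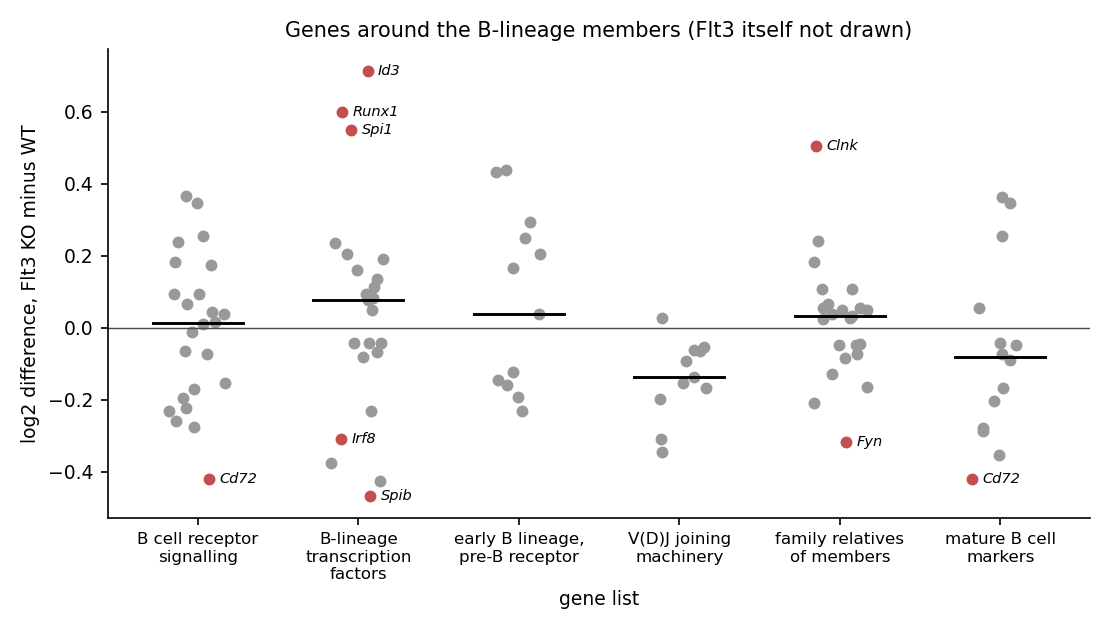
Log2 difference, Flt3 KO minus WT (y axis), of each gene in 6 lists around the members (x axis); red points passed the threshold, grey did not, and the black line is the median of the list. Flt3 is left out of the drawing but not of the median. Id3, Runx1, Spi1 and Clnk are the genes that rose, and Spib, Cd72, Fyn and Irf8 those that fell.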

How the data were processed

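The authors deposited a table of processed intensity, on a linear scale, for 30177 probe sets in 4 arrays; RNA was prepared with an Ambion WT Expression kit and biotin labelling, per the labels' protocols. How they corrected background, summarised probes and scaled arrays is not given in the sources used here. Intensities were converted to log2 with no added constant. The 21789 probe sets with a single symbol in the platform annotation gave 19938 genes, each by its brightest probe set. Genotypes were compared in limma 3.58.1 (R 4.3.3: lmFit, eBayes with an intensity trend, no covariate), tested on simulated data, with Benjamini-Hochberg adjustment. Intervals are 95% and use the moderated variance.

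Members and gene lists were chosen with earlier results of these data known, so no set test was run. Named genes are all members, up to 4 called and the 2 brightest of each list and a few fixed ones; marker lists other than B cells are given as counts, with Siglech for pDCs. The alternatives, 13 in number, covered the replicate block, left-out arrays, scaling, variance model, added constant, probe sets and dim genes.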

Additional observations from a re-analysis of the deposited data

How the results depend on the processing

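The count of members past the threshold was 1, Fcrla, in the main fit, with quantile normalization, with 16 added to each intensity, with probe sets averaged and with all 30177 probe sets tested. It was 2 after centring, with robust variance and with dim genes left out (Fcrla and Dntt), and 0 without the intensity trend (4 members at an unadjusted p under 0.05 in limma). With 1 array left out, which leaves 1 residual degree of freedom and takes the lone sample to vary like the other genotype, it was 0 to 0 in the 4 fits, with 3 to 4 members at an unadjusted p under 0.05 and 0, 0, 54 and 2 genes called in all. The members' median difference ran from −0.08 to −0.0013 in those fits and was −0.14 with dim genes left out, where Rag1 and Rag2 are not tested. Signs turned under at least 1 alternative for Blnk, Cd79a, Pax5, Rag1 and Rag2 and under none of the 13 for Fcrla, Dntt, Cd79b, Blk and Pou2af1.

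Calls in the other lists varied as well. The count for B cell receptor signalling, 1 in the main fit, was 2 after centring and 2 with quantile normalization (adding Prkcb or Fcgr2b), 3 with dim genes left out and 0 without the trend or with all probe sets tested. For transcription factors it was 5, against 0 without the trend and 2 with all probe sets tested; for mature B cell markers 1, against 2 after centring, 3 with dim genes left out and 0 without the trend or with all probe sets tested. Early B-lineage genes had 1, against 2 with quantile normalization (adding Kit) and 3 with dim genes left out (adding Kit and Igll1). For relatives of the members it was 2, against 1 with the block, with all probe sets tested or with dim genes left out, and 0 without the trend. With an array left out these lists had no calls other than Flt3. The counts of pDC markers (7), monocyte and macrophage markers (5) and plasma cell markers (4) fell to 1, 2 and 2 without the trend and to at most 0, 2 and 1 with an array left out.

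Replicate numbers were used as a replicate block in 1 alternative, which left 1 member past the threshold and 375 genes in all against 476. Same-numbered arrays did not deviate together (correlation over genes −0.017), so the numbers are not taken as pairs.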
